A study of Cucumis melo with 8 samples.

Results

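The miR166 family of melon is listed in the processed small RNA table under 9 names, cme-miR166a to cme-miR166i, where cme stands for Cucumis melo. These names were taken by name alone, and each distinct mature sequence was counted once, which leaves 4 sequences of the 71 in the table (116 names, 30 families). 6 of the names (a, b, c, d, f and h) carry a single sequence and the same values, and this sequence is called miR166a/b/c/d/f/h here. The other 3 sequences are cme-miR166e, cme-miR166g and cme-miR166i, written below without the prefix. The family total is the sum of the 4 sequences.

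The libraries came from the fruit flesh (mesocarp) of the Hami melon ‘Flavor No. 4’, a crisp, sweet-fleshed melon of Xinjiang, with no treatment, at 10, 20, 30 and 40 days after flowering (DAF). There were 8 libraries, 1 per stage in each of 2 batches. Each library of batch 1 pooled the RNA of 3 fruits and was read single-end on an Illumina GAIIx, and each library of batch 2 held a single fruit of the next season and was read paired-end on an Illumina NextSeq. Season, sequencer and number of fruits therefore cannot be told apart, and with n = 2 per stage the p-values below measure only the spread between these libraries. The table holds miRNAs only, so the tissue label was not checked against marker genes. In a whole-tissue sample, fewer cells that make a miRNA and less of it per cell cannot be told apart.

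miR166 is among the oldest miRNA families of land plants. In Arabidopsis it pairs along nearly its whole length with a site in the mRNAs of HD-ZIP III transcription factors (homeodomain proteins with a leucine zipper), such as PHABULOSA and REVOLUTA, and guides their cleavage. HD-ZIP III factors set the upper (adaxial) side of lateral organs and pattern the vascular strands, and miR166 restricts them from the lower side. A fruit is a modified carpel, itself a lateral organ with a vascular network. Targets were not measured in these libraries.

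The mature sequences are shown because the 4 members differ only at their 3′ ends, which bears on how reads could be told apart. Capitals mark bases 2 to 8, the seed.
miR166a/b/c/d/f/h: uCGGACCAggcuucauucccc
miR166e: uCGGACCAggcuucauuccuc
miR166g: uCGGACCAggcuucauuccc
miR166i: uCGGACCAggcuucauucuc

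All 4 share their first 18 bases, and none of the other sequences in the table has the same bases 2 to 8. Counted from the 5′ end of the 21 nt miR166a/b/c/d/f/h, miR166e differs by C20U and the 20 nt miR166i by C19U. miR166g, also 20 nt, has no substitution and equals the first 20 bases of miR166a/b/c/d/f/h. Outside the family, the nearest sequence of the table differed at 9 bases when the shorter was laid on the longer. The authors allowed 1 mismatch when matching reads, and how a read fitting more than 1 member was assigned is not given in the sources used here, so values of the 4 members are uncertain with respect to each other, while the family total does not depend on that choice unless a read was counted for more than 1 of them.

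A mature miRNA is cut from a hairpin precursor. The precursor sequences of the study hold 8 miR166 hairpins of 100 to 276 nt, and the mature sequence lies in the 3′ arm in 8 of 8 when folded with RNAfold. The 21 nt sequence of miR166a/b/c/d/f/h occurs in 5 hairpins (MIR166a, b, c, d and f), and the hairpin of MIR166h was not analysed here. The 20 nt sequence of miR166g occurs in 6, these 5 and MIR166g, so a read of miR166g does not name a single gene. miR166e and miR166i occur in 1 hairpin each. The hairpins of MIR166a and MIR166g are shown because they separate the 21 nt and the 20 nt form, with the mature sequence in capitals.
MIR166a: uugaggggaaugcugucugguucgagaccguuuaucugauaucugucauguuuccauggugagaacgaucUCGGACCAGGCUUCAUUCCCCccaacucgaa
MIR166g: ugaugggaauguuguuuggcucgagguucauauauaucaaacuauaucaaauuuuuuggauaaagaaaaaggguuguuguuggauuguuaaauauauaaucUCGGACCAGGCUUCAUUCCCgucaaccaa

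The base that follows the 20th mature base is C in MIR166a, b, c, d, e and f and G in MIR166g and MIR166i. A 21 nt read ending in C therefore differs from the MIR166g hairpin at its last base, whereas a 20 nt read does not separate MIR166g from the 5 genes of the major form that were examined. The RefSeq annotation of assembly USDA_Cmelo_AY_1.0 names 8 MIR166 genes, of which 7 have the length given for the hairpin in the study. The closest pair on a chromosome, MIR166G and MIR166D, have 47 annotated genes between them, so no MIR166 gene lay next to another there.

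Values are the deposited TPM, which here means the reads of a sequence over the total reads of its library, times a constant, with no division by length. Which reads enter that total is not given in the sources used here. The columns summed to 412480 to 883430 TPM over the 71 sequences, so the total holds more than these sequences, and in a share that differs between libraries. Low TPM in each library were whole multiples of the TPM of 1 read, and this step gives totals of 233131 to 410953 reads in batch 1 and 105077 to 985349 in batch 2. The shallowest library was 30DAF of batch 2, in which 1 read is 9.52 TPM. Values of 3 reads or fewer were treated as the detection floor, which is 7.30 to 12.9 TPM in batch 1 and 3.04 to 28.6 TPM in batch 2. Intervals on reads are exact 95% intervals that address counting error only, because reads copied by PCR and lacking molecular identifiers do not count molecules. miR159, miR319 and miR396 together held 94.7 to 98.6% of the TPM of the 71 sequences, so the TPM of a minor family also moves with these 3.

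miR166a/b/c/d/f/h was the main form of the family, and its TPM was highest at 30DAF in both batches, as it was for 9.86% of the 71 sequences. In batch 1 it stood at 124, 197, 586 and 72.9 TPM at 10, 20, 30 and 40DAF (39, 71, 241 and 17 reads). In batch 2 it stood at 31.4, 92.4, 542 and 170 TPM (19, 91, 57 and 23 reads). Both 30DAF libraries lay above the other 6, which was the case for 5.63% of the 71 sequences, while the libraries of the other 3 stages overlapped. The stage means were 77.7 ± 65.4, 145 ± 74.1, 564 ± 31.1 and 122 ± 69.0 TPM (SD, n = 2), in the order of the stages. Ordered by mean the stages run 10DAF, 40DAF, 20DAF and 30DAF, and the neighbours among the lower 3 differ by less than 1 SD. The rank of miR166a/b/c/d/f/h among the 71 sequences ran from 13 in both 30DAF libraries to 25.

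**Figure D1:**
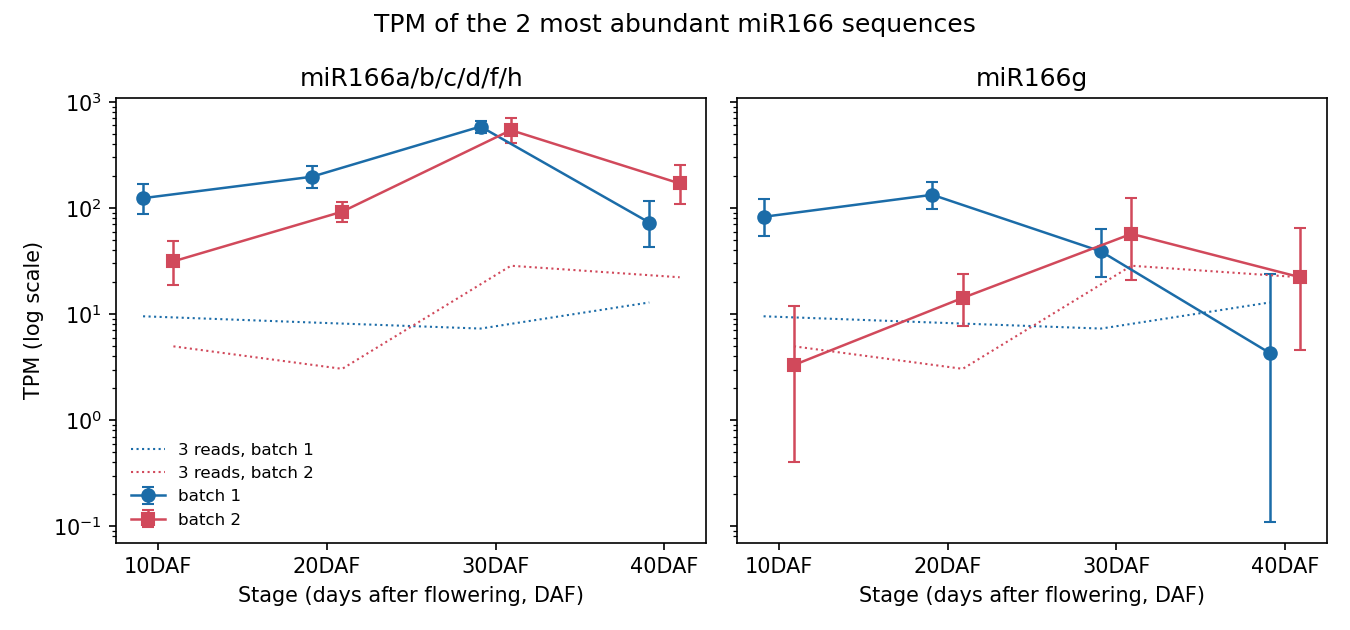
TPM of miR166a/b/c/d/f/h (left) and miR166g (right) on a log axis against stage in days after flowering. Points are the batch 1 (circles) and batch 2 (squares) library of each stage, bars are exact 95% counting intervals, and dotted lines mark the TPM of 3 reads. miR166a/b/c/d/f/h stands at 586 and 542 TPM at 30DAF, above every other library, whereas miR166g is highest at 20DAF in batch 1 and at 30DAF in batch 2.

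Within each batch the counting intervals of the ratios between 30DAF and the other stages excluded 1. From 10 to 30DAF miR166a/b/c/d/f/h was 4.73-fold higher in batch 1 (interval 3.36 to 6.82) and 17.3-fold higher in batch 2 (10.1 to 30.7). From 20 to 30DAF the ratio was 2.97 (2.27 to 3.93) and 5.87 (4.14 to 8.27). At 40DAF the level was 8.04-fold (4.92 to 14.04) and 3.18-fold (1.93 to 5.41) lower than at 30DAF. The direction of these 3 steps was thus the same in both batches, with sizes that differed between them. The step from 10 to 40DAF was not of 1 direction, with a ratio of 0.589 (0.312 to 1.07) in batch 1 and 5.42 (2.83 to 10.5) in batch 2.

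To test the steps between stages, log2(TPM + 5) of all 71 sequences was fitted with limma in a model of the 4 stages over all 8 libraries. A sequence was called at a p under 0.05 before adjustment and a fold over 1.5, the form of threshold that the study applied, and the p printed here is adjusted by Benjamini-Hochberg within each comparison. From 10 to 30DAF miR166a/b/c/d/f/h rose by a log2 fold change of 3.05 (SE 0.82, 95% interval 1.08 to 5.02, limma adjusted p = 0.199). Sequences called higher in that comparison made up 7.04% of the 71, and 14.1% were called in either direction. From 20 to 30DAF the sequence rose by 2.02 (SE 0.82, interval 0.05 to 3.99, limma adjusted p = 0.639), where 4.23% of the 71 were called higher. From 30 to 40DAF it fell, at -2.28 (SE 0.82, interval -4.25 to -0.31, limma adjusted p = 0.415), where 5.63% were called lower and 9.86% in either direction. The calls before adjustment thus describe a rise up to 30DAF and a fall after it. None of the 3 passed 0.05 after adjustment, a limit that 2.82% of the sequences passed from 10 to 30DAF and 0.0% in the other 2 comparisons.

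The remaining steps of miR166a/b/c/d/f/h were not called. Their log2 fold changes were 1.03 from 10 to 20DAF (interval -0.94 to 3.003), 0.77 from 10 to 40DAF (-1.20 to 2.74) and -0.26 from 20 to 40DAF (-2.23 to 1.71), where 7.04%, 22.5% and 14.1% of the 71 sequences were called. With libraries scaled on the other families the step from 20 to 40DAF was called lower, at -1.47. The rise from 10 to 30DAF was called in all 19 alternative settings run, with values of 1.95 to 3.97 and adjusted p of 0.0449 to 0.482. The rise from 20 to 30DAF was not called when libraries were scaled on the other families (1.04) or on clean reads (0.85), nor without any 1 of the 6 libraries of 20, 30 and 40DAF (1.49 to 2.55). The fall from 30 to 40DAF was not called without 30DAF of batch 1 (-2.23), 40DAF of batch 1 (-1.70) or 30DAF of batch 2 (-2.34).

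For ripening (30 and 40DAF) against early stages (10 and 20DAF), miR166a/b/c/d/f/h stood at 343 ± 259 against 111 ± 69.0 TPM (SD, n = 4). The log2 fold change was 1.40 (SE 0.58, interval 0.0031 to 2.79, limma adjusted p = 0.185), a call in a comparison in which 16.9% of the 71 sequences were called higher and 25.4% in either direction, or 4.23 and 5.63% after adjustment. With the batch as a block the unadjusted p was above 0.05 (limma adjusted p = 0.194), and the call was lost in 12 of 18 alternative settings. The log2 fold change without the library was 1.66 for 20DAF and 1.37 for 30DAF of batch 1, and 0.94, 1.13, 1.42 and 1.10 for 10, 20, 30 and 40DAF of batch 2, none of them called. The ripening group holds both the highest stage, 30DAF, and 40DAF. On the deposited TPM 40DAF lay below both early libraries in batch 1 and above both in batch 2. With each of the other 3 scalings, described below, 40DAF of batch 2 lay below its 20DAF library and above its 10DAF library. Scaled on other families it was 83.7 against 171 at 20DAF, by the median ratio 145 against 148, and on clean reads 67.0 against 226.

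**Figure D2:**
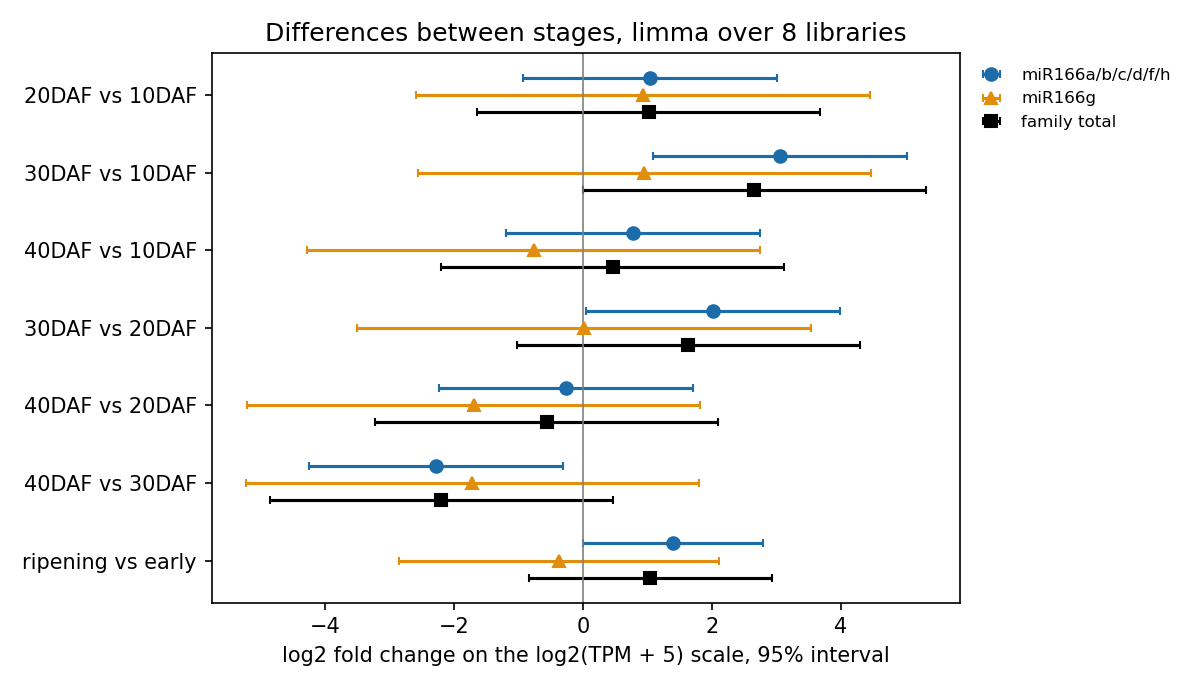
Log2 fold changes on the log2(TPM + 5) scale (x axis) for 7 comparisons of stages (y axis), from limma over 8 libraries. Points are estimates and bars 95% intervals for miR166a/b/c/d/f/h, miR166g and the family total; the intervals of miR166a/b/c/d/f/h exclude 0 from 10 to 30DAF (3.05), from 20 to 30DAF (2.02), from 30 to 40DAF (-2.28) and for ripening (1.40), and all 7 intervals of miR166g include 0.

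TPM depends on the total to which each library is scaled, and the step at 30DAF was recomputed on other totals. The alternatives scaled each library on the TPM of the families outside miR159, miR319 and miR396, by the median ratio over sequences, or on the clean reads that the study lists for it. Relative to the deposited TPM these scalings shift every sequence between ripening and early stages by a log2 of -1.22, -0.39 and -1.18, averaged over the batches. The shift differed between the batches. From 20 to 30DAF it was -0.58, -0.020 and 0.065 in batch 1 and -1.42, -0.94 and -2.47 in batch 2. The other families include miR164, which was itself higher in the ripening than in the early libraries of both batches. Its TPM, in the order of the stages, was 1716, 2166, 8673 and 11105 (batch 1) and 877, 1580, 7642 and 12245 (batch 2). Levels scaled on the other families therefore also move with miR164, and that scaling was not repeated without it. miR166a/b/c/d/f/h was highest at 30DAF in 8 of 8 combinations of batch and scaling. Its ratio of 30 to 10DAF ran from 2.79 to 17.3 over these combinations and its ratio of 30 to 40DAF from 3.13 to 9.46. The ratio of 30 to 20DAF ran from 1.06 to 5.87, and the lowest value, for clean reads in batch 2, left 20 and 30DAF at nearly the same level.

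**Figure D3:**
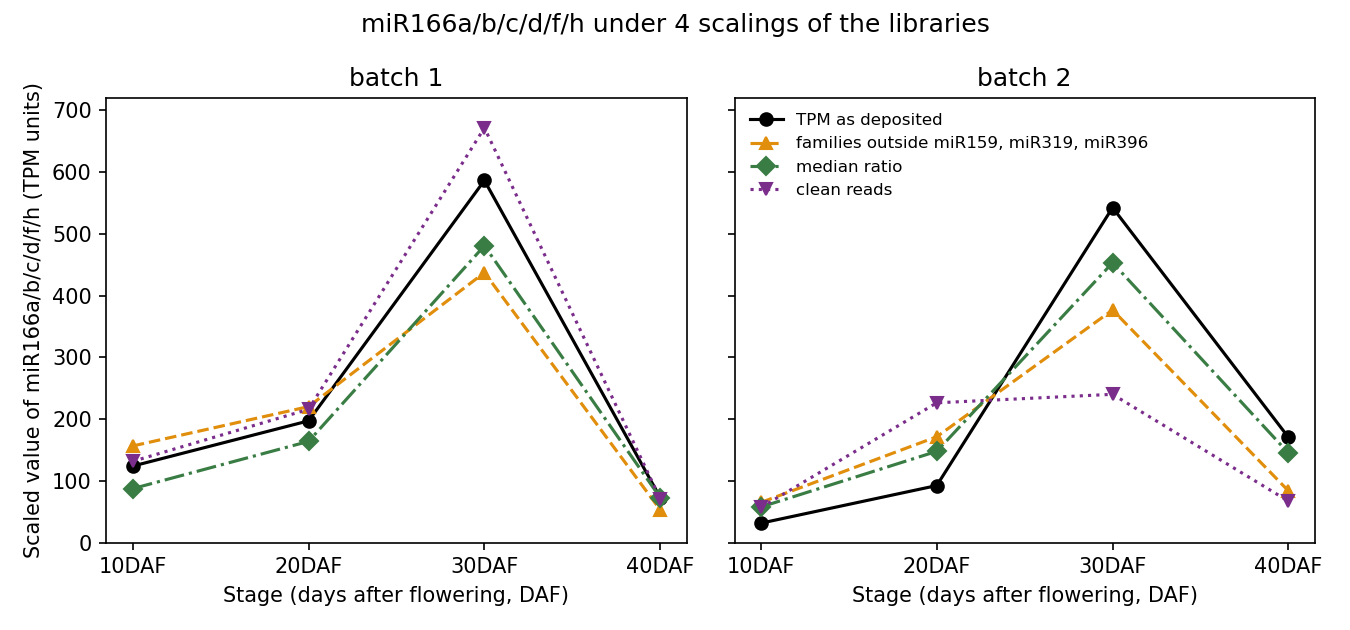
Level of miR166a/b/c/d/f/h in TPM units (y axis, linear) against stage in batch 1 (left) and batch 2 (right), with 1 line per scaling of the libraries. 30DAF is the highest stage on every line, and on clean reads in batch 2 it is only 1.06 times 20DAF.

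miR166g, the 20 nt form, followed different courses in the batches. In batch 1 it stood at 82.6, 133, 38.9 and 4.29 TPM at 10, 20, 30 and 40DAF (26, 48, 16 and 1 reads). In batch 2 it stood at 3.31, 14.2, 57.1 and 22.2 TPM (2, 14, 6 and 3 reads). The early libraries of batch 1 were above its ripening libraries, and on the deposited TPM the early libraries of batch 2 were below its ripening libraries. With each of the other 3 scalings 20DAF of batch 2 lay above its 40DAF library, and with clean reads (34.8 at 20DAF, 25.3 at 30DAF and 8.75 at 40DAF) above both ripening libraries. From 20 to 30DAF the ratio was 0.292 (counting interval 0.155 to 0.524) in batch 1 and 4.02 (1.27 to 11.1) in batch 2, so the directions were opposite on the deposited TPM. Scaled on clean reads the ratio was 0.306 in batch 1 and 0.726 in batch 2, which puts the batches in the same direction. Over the 8 combinations of batch and scaling miR166g was highest at 20DAF in 5, all 4 of batch 1 and clean reads in batch 2, and at 30DAF in 3. From 10 to 30DAF the ratio was 0.471 (0.236 to 0.912) and 17.3 (3.09 to 175), the latter against 2 reads.

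At 40DAF miR166g was at or under 3 reads in both libraries. In batch 1 the ratio of 40 to 20DAF was 0.0322 (counting interval 0.000798 to 0.188), from 1 read against 48. In batch 2 it was 1.57 (0.288 to 5.61), from 3 reads against 14, and its interval includes 1. None of the 7 stage comparisons was called for miR166g. Its log2 fold change was 0.95 from 10 to 30DAF (SE 1.47, interval -2.56 to 4.47), -1.72 from 30 to 40DAF (SE 1.47, interval -5.23 to 1.80) and -0.37 for ripening (SE 1.04, interval -2.86 to 2.11, limma adjusted p = 0.857). A change of the size seen for miR166a/b/c/d/f/h from 10 to 30DAF, 3.05, lies inside the interval of miR166g for the same step.

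A second limma model, with an interaction of batch and ripening or early, compared the ripening change of the batches, and in it the 2 stages of a kind within a batch stand as replicates. For miR166g the change was larger in batch 2 by a log2 of 4.15 (SE 1.33, 95% interval 1.09 to 7.20, limma adjusted p = 0.140). In this fit 19.7% of the 71 sequences were called, all of them with a higher change in batch 2, 2.82% passed after adjustment, and the median over the 71 was 1.11. The difference of miR166a/b/c/d/f/h was 1.97 (SE 1.46, interval -1.37 to 5.31) and was not called, though it was called at 3.43 without 30DAF of batch 1. The call of miR166g was lost with clean reads as the scale (2.44), and also without 20DAF of batch 1 (3.82), 10DAF of batch 2 (3.54) or 30DAF of batch 2 (3.55). On the deposited TPM, ripening libraries on opposite sides of the early ones in the batches, as for miR166g, were seen for 11.3% of the sequences.

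The balance of the 20 nt and the 21 nt form was read from the share of miR166g in the reads of miR166g and miR166a/b/c/d/f/h, which does not depend on the scaling of the libraries. The share was 40.0, 40.3, 6.23 and 5.56% at 10, 20, 30 and 40DAF in batch 1, from 65, 119, 257 and 18 reads. In batch 2 it was 9.52, 13.3, 9.52 and 11.5%, from 21, 105, 63 and 26 reads. By share, the early batch 1 libraries stood above the other 6 libraries, which lay between 5.56 and 13.3%. The exact binomial 95% intervals of these 2 early libraries were 28.0 to 52.9% and 31.4 to 49.7%. The intervals of 10 and 40DAF of batch 2 reached up to 30.4 and 30.2%, above the lower limit of 10DAF of batch 1. In the study, the most abundant length of all small RNAs was shorter in the early than in the ripening libraries of batch 1. In batch 2 it was shorter in the ripening libraries. Whether read length bears on the share was not tested.

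**Figure D4:**
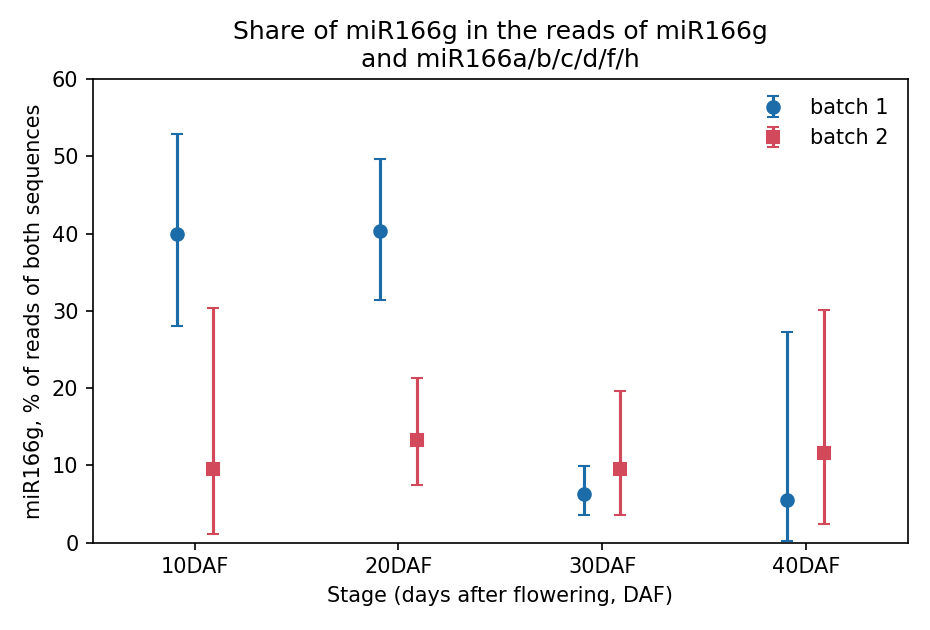
Share of miR166g in the reads of miR166g and miR166a/b/c/d/f/h (y axis, %, from 0) against stage in days after flowering, for batch 1 (circles) and batch 2 (squares). Bars are exact binomial 95% intervals; 10 and 20DAF of batch 1 stand at 40.0 and 40.3%, and the other 6 libraries lie between 5.56 and 13.3%.

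With 5 TPM added to both, the log2 ratio of miR166g to miR166a/b/c/d/f/h was -3.16 ± 0.440 (SD, n = 4) at ripening and -1.39 ± 0.976 (SD, n = 4) in the early stages. The difference of -1.77 had a two-sided exact permutation p = 0.0286, the smallest that 4 libraries against 4 can give, and on this scale the ratio of each early library was above those of all ripening libraries. On the share of reads itself, 10DAF of batch 2 (9.52%) was not above 40DAF of batch 2 (11.5%). With permutation within the batches, where 0.0556 is the smallest possible, the exact p was 0.0556. The difference was -2.86 in batch 1 and -0.68 in batch 2. Without the added 5 TPM, the ratio of miR166g to miR166a/b/c/d/f/h in batch 2 was 0.105 and 0.154 in the early and 0.105 and 0.130 in the ripening libraries, which overlap. The p also rose above 0.05 with a pseudocount of 1 TPM (exact p = 0.0571), on the share of reads (exact p = 0.0857), and without any 1 of the 4 ripening libraries (exact p = 0.0571 to 0.0857).

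miR166e and miR166i were close to the limit of detection. miR166e had 2, 4, 2 and 0 reads in batch 1 and 3, 4, 1 and 1 reads in batch 2 at 10, 20, 30 and 40DAF, 17 reads in all, and was above the floor only in the 20DAF libraries. miR166i had 1, 1, 2 and 0 reads in batch 1 and 0, 1, 0 and 3 reads in batch 2, 8 reads in all, and was never above it. No stage difference was detectable for these 2 sequences at this depth, and a count of 0 at 40DAF of batch 1 still allows 12.9 TPM. Together miR166e and miR166i held 0 to 13.3% of the family total.

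Summed over the 4 sequences, the family followed its main form. The family total was 216, 344, 635 and 77.2 TPM at 10, 20, 30 and 40DAF in batch 1 and 39.7, 112, 609 and 222 TPM in batch 2, from 699 reads in all. On the deposited TPM both 30DAF libraries were the highest, and the libraries of the other stages overlapped. The family total was highest at 30DAF in 7 of 8 combinations of batch and scaling, the exception being clean reads in batch 2, where 30DAF was 0.985 times 20DAF. miR166a/b/c/d/f/h made up 57.4 and 57.3% of the total in the early batch 1 libraries, 92.3 and 94.4% in its ripening libraries, and 76.7 to 82.7% in batch 2 except at 30DAF, where it was 89.1%. From 10 to 30DAF the log2 fold change of the total was 2.66 (SE 1.19, interval 0.00016 to 5.31, limma adjusted p = 0.4999 over 30 families), a call just inside the threshold where 10.0% of the families were called higher. Of 19 alternatives 8 lost the call, among them leaving out 20DAF of batch 1 (2.66), 30DAF of batch 1 (2.63), or 10, 30 or 40DAF of batch 2 (1.50, 2.69 and 2.66).

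The other steps of the family total were not called. Their log2 fold changes were 1.64 from 20 to 30DAF (SE 1.19, interval -1.02 to 4.29), -2.20 from 30 to 40DAF (SE 1.19, interval -4.85 to 0.46) and 1.05 for ripening (SE 0.84, interval -0.83 to 2.93). Of the 30 families 6.67% were called higher from 20 to 30DAF, 3.33% lower from 30 to 40DAF and 13.3% in either direction for ripening. The family was a small share of the measured miRNAs, 0.00886 to 0.120% of the TPM of the 71 sequences. That share was 0.0614 ± 0.0470% at ripening and 0.0333 ± 0.0214% in the early stages (SD, n = 4, two-sided exact permutation p = 0.343). Among the 30 families it ranked 17, 13, 8 and 17 in batch 1 and 17, 14, 9 and 15 in batch 2, so its rank was best at 30DAF in both. When the value is counted once for each name, as a sum over the table does, the total at 30DAF becomes 3567 and 3321 TPM and the rank 5 in both batches, because 6 names repeat the same reads.

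No batch difference was called for the family. With the stage in the limma model, batch 2 minus batch 1 was a log2 of -0.45 for miR166a/b/c/d/f/h (interval -1.87 to 0.96), -1.05 for miR166g (-3.41 to 1.31) and -0.62 for the family total (-2.22 to 0.98), while 18.3% of the 71 sequences were called. As a ratio, the 2 libraries of miR166a/b/c/d/f/h differed most at 10DAF, 124 against 31.4 TPM, and least at 30DAF, 586 against 542 TPM.

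The sequences whose course was most like that of miR166a/b/c/d/f/h were ranked by Pearson's r of log2(TPM + 5) over the 8 libraries, among 50 sequences outside the family with a mean of at least 10 TPM. The libraries share their totals and batches, and the values are a description. miR399d/e, of a family that in Arabidopsis answers phosphate shortage, had r = 0.92 (Spearman's rho 0.95). It stood at 19.1, 41.6, 51.1 and 12.9 TPM in batch 1 and 11.6, 27.4, 57.1 and 37.1 TPM in batch 2. By TPM it too was highest at 30DAF in both batches, at 21 and 6 reads. The next highest stage was 20DAF in batch 1 (15 reads) and 40DAF in batch 2 (5 reads), so the peak of batch 2 rests on few reads. At 40DAF of batch 1 it had 3 reads, the floor. miR172d had r = 0.75, miR399g 0.70, and miR172b/c and miR169g 0.64 each. Of these, miR399g was highest at 30DAF in both batches by TPM. In batch 2 its 30DAF and 40DAF libraries each held 10 reads (95.2 against 74.1 TPM), so that peak also rests on few reads. In batch 2 miR172d (66.71 against 47.58 TPM) and miR172b/c (482 against 343 TPM) were higher at 40DAF than at 30DAF. miR172d had 1 read at 10DAF of batch 2. In batch 1 miR169g was highest at 10DAF (47.65 against 46.23 TPM at 30DAF). miR172 targets APETALA2-like factors and miR169 subunits of nuclear factor Y in Arabidopsis. miR166g itself had r = 0.66, with 0.39 in batch 1 and 0.998 in batch 2 over 4 libraries each.

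Other miRNA families that act beside HD-ZIP III factors in Arabidopsis lateral organs gave a list of 15 sequences of miR160, miR164, miR167, miR319, miR390 and miR396. These target auxin response factors (miR160 and miR167), NAC factors of organ boundaries (miR164), TCP factors (miR319), growth-regulating factors (miR396) and, by way of trans-acting small RNAs, further auxin response factors (miR390). From 10 to 30DAF 1 of the 15 was called higher and 1 lower, with a median log2 fold change of -0.60 against 0.17 over all 71, of which 7.04% were called in each direction. The one higher was miR164c/d, at 4.83 (SE 0.83, limma adjusted p = 0.0447), which had 183 and 53 reads at 10DAF and 3072 and 614 at 30DAF. The one lower was miR167c, at -2.75 (limma adjusted p = 0.307), which had 27 and 23 reads at 10DAF and 5 and 0 at 30DAF. At 40DAF it had 0 and 1 reads, below the floor of 3 reads. From 30 to 40DAF, where miR166a/b/c/d/f/h was called lower, none of the 15 was called, against 9.86% of the 71. For ripening 1 was called higher (miR164c/d, 4.02) and 3 lower (miR167c, -2.44, miR319a/b, -1.58, and miR319c/d, -1.49), with a median of -0.26 against 0.08 over all 71, of which 16.9% were called higher and 8.45% lower.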

How the data were processed

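Small RNA libraries of 8 mesocarp samples were analysed. The authors trimmed and filtered reads (FASTX-Toolkit 0.0.13 in the submitters' processing notes), kept 18 to 30 nt, removed matches to rRNA and tRNA (Rfam 12.0) and matched the rest to plant miRNAs (miRBase 21) with 1 mismatch. The deposited unit is TPM, reads over a total read count of the library times a constant, without length division, and 1 line with an extra empty field was repaired. The members and lists were chosen with earlier results of these data known.

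Reads were recovered from the TPM of low values (33 to 43 per library, whole within 0.1 read). Since the deposited table holds TPM and not counts, limma 3.58.1 (R 4.3.3) was fitted on log2(TPM + 5) with a mean-variance trend. All sequences were fitted, with no filter on low values, and all 4 miR166 sequences were retained. Exact permutation tests used scipy 1.17.1 in Python 3.11.15, and hairpins were folded with RNAfold 2.7.2. All 4 miR166 sequences are named in the text, with the 5 most correlated sequences outside the family and at most 6 of the organ list.

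The library numbers 1 and 2 mark the batch. Differences between the batches correlated between stages in all 6 pairs of stages (r = 0.35 to 0.66, mean 0.50), so the batch was fitted as a block beside each comparison. Alternatives were pseudocounts of 1 and 20 TPM, a mean of at least 10 TPM, 3 scalings, only the libraries compared, no trend, voom on recovered reads, every name counted, the block, and leaving out each library. Targets, melon-specific miRNAs and raw reads were not analysed here.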

Additional observations from a re-analysis of the deposited data

Results flagged for a closer look

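The change of miR166g towards ripening differed between the batches by a log2 of 4.15 (second minus first, SE 1.33, limma adjusted p = 0.140 over 71 sequences), and it was singled out because the difference itself passed the threshold before adjustment. miR166g stood at 82.6 and 133 TPM in the early and 38.9 and 4.29 TPM in the ripening libraries of batch 1, and at 3.31 and 14.2 against 57.1 and 22.2 TPM in batch 2, and with clean reads as the scale the difference was 2.44 and not called. Of the 8 values, 3 rest on 3 reads or fewer.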

How the results depend on the processing

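The change of miR166a/b/c/d/f/h from 10 to 40DAF turned negative with scaling on the other families (-0.57) and on clean reads (-0.31), its batch difference became 0.040 with the median ratio, and its difference between batches in the ripening change became -0.23 on clean reads. For miR166g the change from 20 to 30DAF turned negative with a pseudocount of 20 TPM (-0.10) and with scaling on other families (-0.83), the median ratio (-0.36) and clean reads (-1.001), and the ripening change was 0.071 with voom. For the family total, the rise from 10 to 30DAF was no longer called with a pseudocount of 20 TPM (2.44) or with scaling on other families (1.54) or clean reads (1.74). With these 2 scalings the family turned negative from 10 to 40DAF (-0.90 and -0.64) and for ripening (-0.12 and -0.091). Its rise from 20 to 30DAF was called with voom (1.98) and when every name was counted (1.97), and its fall from 30 to 40DAF with the 3 scalings (-2.44, -2.04 and -2.38) and every name (-2.31). The cause of these changes was not tested.

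The log2 ratio of miR166g to miR166a/b/c/d/f/h was -1.78 with a pseudocount of 1 TPM, the share of reads differed by -17.6 percentage points, and with the replicate block the ratio was -1.77, none of these past 0.05. The block changed no call of these members apart from the ripening change of miR166a/b/c/d/f/h and this ratio.

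Leaving out 1 library at a time gave, for the family total, -0.13 to 2.17 from 10 to 20DAF, 1.50 to 3.81 from 10 to 30DAF, -0.69 to 1.61 from 10 to 40DAF, -1.35 to 0.23 from 20 to 40DAF and 1.17 to 4.13 for the batch difference in the ripening change (called without 30DAF of batch 1, at 4.13 with limma adjusted p = 0.0148, and without 40DAF of batch 2, at 3.36), and -2.08 to -1.48 for the ratio. For miR166a/b/c/d/f/h it gave -0.14 to 1.68 from 10 to 40DAF, -0.85 to 0.32 from 20 to 40DAF and -0.996 to 0.0019 between batches. For miR166g it gave -0.77 to 2.63 from 10 to 20DAF, -0.75 to 2.65 from 10 to 30DAF, -2.46 to 0.94 from 10 to 40DAF, -1.40 to 1.44 from 20 to 30DAF and -1.22 to 0.48 for ripening. In a fit that leaves a stage with 1 library, that library is assumed to vary like the others.

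Apart from leaving out single libraries, which also moved the counts, the alternatives called 2 to 5 sequences from 10 to 20DAF (main fit 5). They called 7 to 17 from 10 to 30DAF (10), 9 to 22 from 10 to 40DAF (16) and 4 to 10 from 20 to 30DAF (4). The range was 7 to 14 from 20 to 40DAF (10), 4 to 15 from 30 to 40DAF (7) and 15 to 27 for ripening (18). Between batches it was 12 to 23 (13), and for the difference in the ripening change 6 to 23 (14). The highs of 17, 10, 15, 27, 23 and 23 came from counting every name, which tests 116 names rather than 71 sequences. Without that setting these highs were 13, 8, 8, 18, 21 and 19. With 1 to 26 reads of miR166g in 7 of 8 libraries, depth limits what can be said of this form.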
